A study of Mus musculus with 4 samples.

Results

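The Slc2a genes encode the GLUT proteins, membrane carriers, most of which let glucose and related sugars cross the membrane down their gradient. Their members were taken as every probe set of the Affymetrix mouse array whose platform annotation gives exactly 1 symbol, that symbol being Slc2a1, Slc2a2, Slc2a3, Slc2a4, Slc2a5, Slc2a8, Slc2a9, Slc2a10, Slc2a12 or Slc2a13. This gave 10 genes, of 18193 symbols annotated alone to a probe set, and 19 probe sets, of 45101 on the array. Of the 19, 14 probe sets from 9 genes were among the brighter 60% of the array and entered the fit across all probe sets. The other 5 were too dim, and they included both probe sets of Slc2a9. The family was selected on the signals of these same 4 pools, in which Slc2a1 and Slc2a3 were already known to be higher with iron deficiency, so the diet differences of its members are given as a description, without a test.

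The samples were kidneys of C57BL/6 embryos at embryonic day 15, carried by dams on an iron-deficient diet of about 2 to 6 ppm iron or on a control diet of 220 ppm iron. The dams were 8 weeks old when divided, at least 20 per diet, and ate these diets for 3 weeks before gestation and throughout pregnancy. They had been mated with C57BL/6 males. Each diet had 2 pools of 16 kidneys and each pool 1 array, so that every value below is an average over many kidneys, and whether separate litters filled the pools is not stated in the labels. The spread between pools may therefore be technical, and in whole-kidney RNA fewer cells of a type cannot be told apart from less RNA per cell.

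GLUT proteins differ in where they sit and in what they carry. In mature nephrons, the proximal tubule takes glucose up from the filtrate with sodium-coupled carriers and releases it to the blood through GLUT2, the product of Slc2a2, while GLUT1, from Slc2a1, serves the basal uptake of glucose in many cell types. Slc2a1 and Slc2a3 are known targets of the hypoxia-inducible factors, whose prolyl hydroxylases need iron and oxygen to mark the factor for breakdown.

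The hypoxia-inducible factors bind DNA at a core of ACGTG or GCGTG, and nuclear receptors such as HNF4 at sites built from AGGTCA. Shown are the 250 bases before the annotated start of Slc2a1 and Slc2a2, the members with the most positive and the most negative difference among those with an entry in the RefSeq promoter table. They are RefSeq sequences of build GRCm38.p6, plus strand, Slc2a1 at chr4:119108495-119108744 and Slc2a2 at chr3:28697653-28697902, written 5′ to 3′. Capitals mark ACGTG and CACGC (the reverse complement of GCGTG) in Slc2a1, and AGGTCA in Slc2a2.
Slc2a1: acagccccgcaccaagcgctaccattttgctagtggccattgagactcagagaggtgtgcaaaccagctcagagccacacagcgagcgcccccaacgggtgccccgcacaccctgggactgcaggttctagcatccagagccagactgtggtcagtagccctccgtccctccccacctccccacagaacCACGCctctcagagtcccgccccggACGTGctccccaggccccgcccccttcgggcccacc
Slc2a2: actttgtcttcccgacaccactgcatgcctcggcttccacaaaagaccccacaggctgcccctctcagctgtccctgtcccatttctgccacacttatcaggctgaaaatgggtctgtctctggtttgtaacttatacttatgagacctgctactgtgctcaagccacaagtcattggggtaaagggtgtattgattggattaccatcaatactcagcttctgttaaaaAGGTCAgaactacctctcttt

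Among the 10 genes, 8 had a window of 300 bases, from 250 before to 50 after the start, in the RefSeq table, and Slc2a3 and Slc2a4 did not. On either strand, ACGTG occurred in the windows of Slc2a1, where it began 36 bases before the start, and Slc2a10, where it began at base 22 of the transcript. It was present in 19.6% of the 32851 windows of the table. GCGTG occurred in Slc2a1, 61 bases before the start, and in Slc2a8, and in 32.4% of all windows. GGGCGG, a box bound by Sp1, occurred in Slc2a1, Slc2a5, Slc2a10 and Slc2a13 and in 35.7% of all windows. AGGTCA occurred in Slc2a2, 21 bases before the start, and in Slc2a9, and in 16.3% of all windows. These matches of short motifs describe the letters only, and the windows leave out distant enhancers.

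Iron-deficient pool 1 differed most from the rest, with correlations of log2 signals of 0.883 to 0.913 with the other arrays, where the other pairs reached 0.970 to 0.978. Its signal at the 5′ part of 18S ribosomal RNA was 2144.5, against 243 in iron-deficient pool 2 and 291.9 and 289.4 in the control pools. The ratio of 3′ to 5′ signal for beta-actin, a sign of RNA integrity and labelling length, was 1.64 and 1.49 in the iron-deficient pools and 1.38 and 1.40 in the control pools, and its part in the results was not tested. The 18 hybridization control probe sets, which detect added bacterial and phage RNAs, were all brighter in each iron-deficient pool than in either control pool. On average they lay 0.87 and 0.32 log2 units above the control mean in iron-deficient pools 1 and 2, so the members are also given with each array centred on these controls. This centring moved the median difference of all tested probe sets by more than any other scaling, from -0.103 to -0.697. The Y-linked gene Eif2s3y read 253.6 and 20.8 in the iron-deficient pools and 594.5 and 600 in the control pools, although every sample is labelled female. Xist, the RNA of the inactive X chromosome, read 3427 and 1543 in the iron-deficient pools and 927 and 168 in the control pools. These sex-linked signals moved with diet, and their part in the Slc2a differences was not tested. Of 10 genes that mark embryonic kidney, 8 had an annotated probe set, and all 8 were above background in all 4 pools. Among them 3 (Wt1, Foxd1 and Six2) had both iron-deficient signals above both control signals, and 2 (Wnt9b and Umod) had both below. Of all tested probe sets, 11.8% and 25% were so placed. Umod read 14.8 and 29.3 in the iron-deficient pools, against 104 and 111 in the control pools. Over all 27022 tested probe sets limma called 0% higher and 0% lower at an adjusted p of 0.05, with a smallest adjusted p of 0.289, and 1069 lay at an unadjusted p under 0.05.

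The members divided by direction. Of the 14 tested probe sets, 6 had both iron-deficient signals above both control signals, where 11.8% of all tested probe sets were so placed. Another 5 had both iron-deficient signals below both control signals, where 25% of all tested probe sets were so placed, and for 3 the diets overlapped. Because the members were chosen with this contrast in view, nothing is read from these counts. The higher ones were all 3 probe sets of Slc2a1, both tested ones of Slc2a3, and that of Slc2a13, and the lower ones were those of Slc2a2, Slc2a10 and Slc2a12 and 1 of 2 of Slc2a4.

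**Figure D1:**
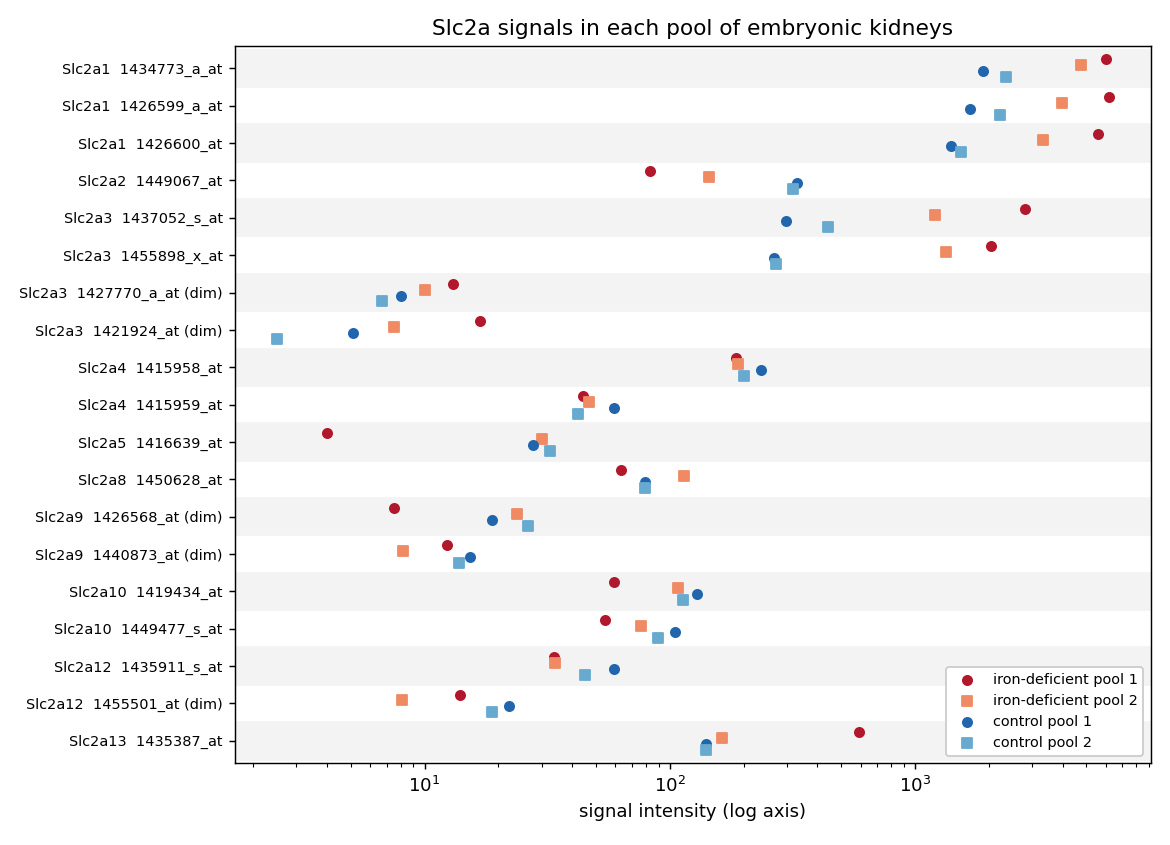
Signal intensity on a log axis for each of the 19 Slc2a probe sets in the 2 iron-deficient and 2 control pools, 1 point per pool, with probe sets too dim to be tested marked. The Slc2a1 signals of the iron-deficient pools, from 3316.1 to 6177, all lie above those of the control pools, and the Slc2a2 signals of the iron-deficient pools, 83.1 and 144.9, lie below 317.6.

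Slc2a1, the gene of the widely expressed transporter GLUT1, was higher in the iron-deficient pools by all 3 of its probe sets. Its probe set 1434773_a_at read 6016 and 4754.7 in the iron-deficient pools, against 1887.8 and 2359.8 in the control pools. No iron-deficient signal overlapped a control signal, and the log2 difference was 1.34 ± 0.34 (SE, n = 2 pools each), a 2.53-fold higher signal. Probe set 1426599_a_at read 6177 and 3976.8 in the iron-deficient pools, against 1668.8 and 2224.2 in the control pools, a log2 difference of 1.36 ± 0.38. Probe set 1426600_at read 5571.6 and 3316.1 in the iron-deficient pools, against 1398.3 and 1544.6 in the control pools, a log2 difference of 1.55 ± 0.38. The 3 probe sets thus gave the same order of pools, with iron-deficient pool 1 highest and control pool 1 lowest. For 1434773_a_at, iron-deficient pool 1 lay 1.51 and iron-deficient pool 2 lay 1.17 log2 units above the control mean. With the arrays centred on their hybridization controls these values became 0.64 and 0.85, the diets still did not overlap, and the log2 differences of the 3 probe sets were 0.75, 0.77 and 0.95. After quantile normalization they were 1.03, 1.07 and 1.30.

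Slc2a3 encodes GLUT3, a transporter with high affinity for glucose that is best known from neurons, placenta and blood cells. Its tested pair of probe sets had the largest positive differences of the family. Its probe set 1437052_s_at read 2820.2 and 1202.1 in the iron-deficient pools, against 298.2 and 443.9 in the control pools. The log2 difference was 2.34 ± 0.51 (SE, n = 2 pools each), a 5.06-fold higher signal. Probe set 1455898_x_at read 2040.3 and 1337.8 in the iron-deficient pools, against 265.1 and 270 in the control pools. Here the log2 difference was 2.63 ± 0.36, a 6.18-fold higher signal. Of tested probe sets, 99.9% had a lower difference, but Slc2a3 was known to be high in these pools when the family was chosen. This rank is therefore a description only. In Affymetrix names, the suffixes s and x mark probe sets whose probes may also match other transcripts. Centred on the hybridization controls, the differences of these probe sets were 1.74 and 2.03, and without iron-deficient pool 1 they were 1.72 and 2.32.

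The other probe sets of Slc2a3 were dim. Probe set 1421924_at read 16.9 and 7.5 in the iron-deficient pools, against 5.1 and 2.5 in the control pools, and only the 16.9 was above its array's background. Background is set here at the highest unspiked control probe set of each array, which was 14.4 and 13.3 in the iron-deficient pools and 8.5 and 8.2 in the control pools. Probe set 1427770_a_at was not above background in any pool, at 13.1 and 10 in the iron-deficient pools and 8 and 6.7 in the control pools. The measurement of Slc2a3 therefore rests on its bright pair of probe sets.

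Slc2a2 encodes GLUT2, the transporter of low affinity that carries glucose out of proximal tubule cells, hepatocytes and intestinal cells. Its single probe set, 1449067_at, read 83.1 and 144.9 in the iron-deficient pools, against 329 and 317.6 in the control pools. The control pools were nearly equal, whereas the iron-deficient pools differed from each other and kept 25.7% and 44.8% of the control mean. Of tested probe sets, 0.825% had a lower difference than Slc2a2, a rank that only describes the pools on which the family was selected. The log2 difference was -1.56 ± 0.39 (SE, n = 2 pools each). It was -1.16 without iron-deficient pool 1, -1.96 without iron-deficient pool 2, and -2.15 with the arrays centred on their hybridization controls. Among members above background in all 4 pools, Slc2a2 had the most negative difference.

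Slc2a5 encodes GLUT5, a fructose transporter of apical membranes. Its probe set 1416639_at read 4 and 30.1 in the iron-deficient pools, against 27.7 and 32.4 in the control pools. Only iron-deficient pool 1 was low, and its signal was not above background, while iron-deficient pool 2 lay between the control pools. The log2 difference was -1.45 ± 0.93, and without iron-deficient pool 1 it was 0.01, so that the difference in the deposited values rests on that array alone. Centred on the hybridization controls it was -2.04, and both iron-deficient signals then lay below both control signals. Slc2a9 encodes GLUT9, a urate transporter. Its probe set 1426568_at showed the same arrangement, at 7.5 and 23.8 in the iron-deficient pools, against 18.9 and 26.5 in the control pools. Here too, the diets did not overlap once centred on the hybridization controls. Probe set 1440873_at of the same gene read 12.3 and 8.2 in the iron-deficient pools, neither above background, against 15.3 and 13.8 in the control pools, and was at least 1.05-fold lower.

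Slc2a4 encodes GLUT4, the insulin-regulated transporter of muscle and fat. Its brighter probe set, 1415958_at, read 187 and 189.5 in the iron-deficient pools, against 235.5 and 201 in the control pools. The iron-deficient pools were close to each other and just below the lower control pool, with a log2 difference of -0.21 ± 0.32. Probe set 1415959_at read 44.4 and 47 in the iron-deficient pools, against 59.2 and 42.1 in the control pools, and the diets overlapped. Its difference of -0.13 ± 0.34 was smaller than its error. After quantile normalization the brighter probe set also overlapped between diets, at -0.01, and centred on hybridization controls the differences were -0.80 and -0.72, each close to the shifted median of all probe sets.

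Slc2a10 and Slc2a12 had modestly lower signals. Slc2a10 encodes GLUT10, whose loss causes arterial tortuosity syndrome in humans. Its probe set 1419434_at read 59.1 and 107.6 in the iron-deficient pools, against 129.7 and 113.1 in the control pools, a log2 difference of -0.60 ± 0.41. Iron-deficient pool 1 was at 48.7% of the control mean and iron-deficient pool 2 at 88.6%, and without pool 1 the difference was -0.17. Probe set 1449477_s_at read 54.7 and 76.2 in the iron-deficient pools, against 104.9 and 89.6 in the control pools (-0.59 ± 0.35). Without iron-deficient pool 1 this difference was -0.35.

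Slc2a12 encodes GLUT12, a further glucose transporter. Its probe set 1435911_s_at read 33.8 and 34 in the iron-deficient pools, against 59.5 and 45.2 in the control pools, a log2 difference of -0.61 ± 0.33. The iron-deficient pools were nearly identical, so that leaving out either one changed the value little (-0.61 and -0.62). The control pools differed more, and the value was -0.42 without control pool 1 and -0.81 without control pool 2. The dimmer probe set 1455501_at was at 13.9 and 8.1 in the iron-deficient pools, neither above background, against 22.2 and 18.9 in the control pools, and was at least 1.48-fold lower.

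Slc2a8 encodes GLUT8, an intracellular transporter, and its pools straddled the controls. Probe set 1450628_at read 63.5 and 114.1 in the iron-deficient pools, against 79.6 and 79.3 in the control pools. Iron-deficient pool 1 was lowest and pool 2 highest, and the difference was 0.10 ± 0.40. Centred on the hybridization controls it was -0.49, and the diets still overlapped. Slc2a13 encodes HMIT, which carries myo-inositol together with protons. Its probe set 1435387_at read 593.4 and 163.8 in the iron-deficient pools, against 140.8 and 140.7 in the control pools. The log2 difference of 1.15 ± 0.64 was set mainly by iron-deficient pool 1, at 422% of the control mean where pool 2 was at 116%, and without pool 1 it was 0.22. With the arrays centred on their hybridization controls the diets overlapped.

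**Figure D2:**
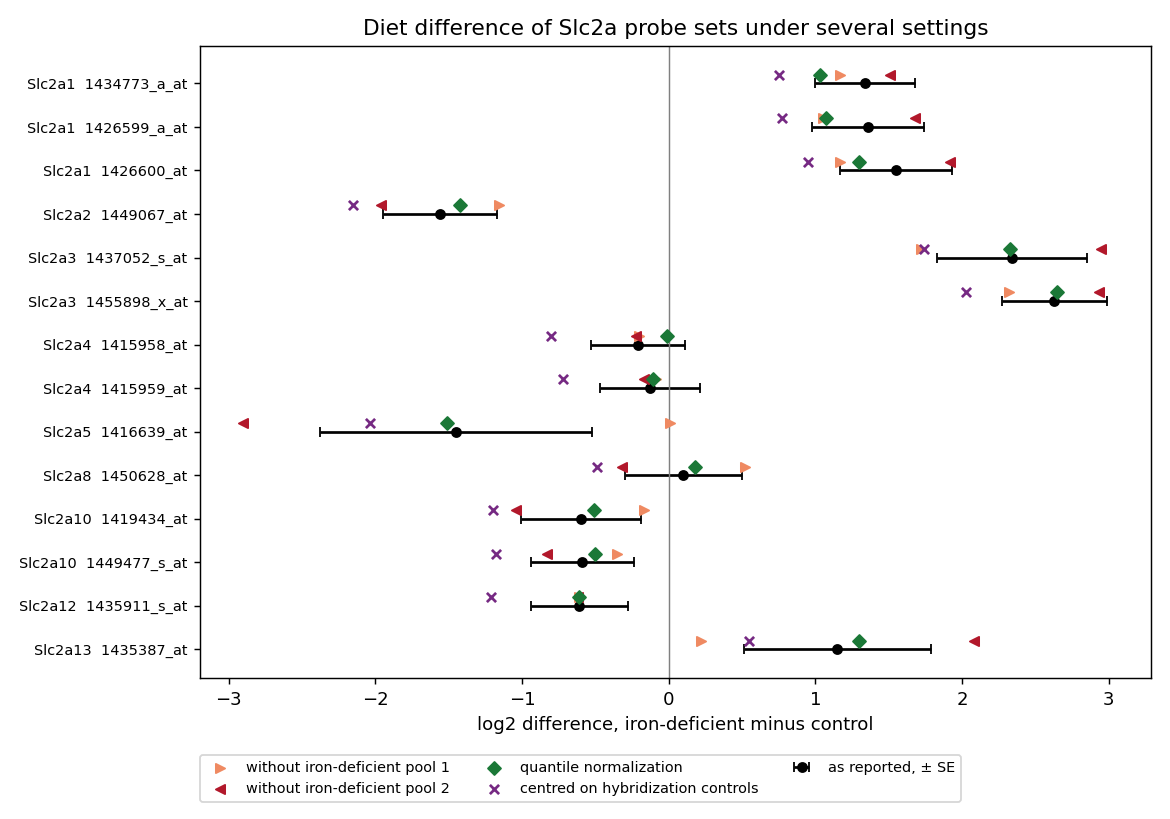
Log2 difference, iron-deficient minus control, for the 14 tested Slc2a probe sets, with black points and bars for the reported value ± SE (n = 2 pools each) and coloured marks for other settings. Slc2a1 and Slc2a3 stay above 0.7 and Slc2a2 below -1.1 under every setting drawn, whereas Slc2a5 moves to 0.01 and Slc2a13 to 0.22 without iron-deficient pool 1. Of the settings drawn, only quantile normalization could have turned the sign of Slc2a1, Slc2a2 or Slc2a3.

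Genes that act around the transporters were counted on their brightest tested probe set, in the same fit over 27022 probe sets, whose median log2 difference was -0.103. None of the tested genes in these 4 lists passed in either direction at an adjusted p of 0.05 by limma. In the trafficking list, which holds proteins that insert, retain or remove GLUT proteins at the membrane, 22 genes were tested. Among them 2 had both iron-deficient signals above the controls and 4 had both below, where 11.8% and 25% of all tested probe sets were so placed, with a median of -0.12. Snap23, a membrane fusion protein, averaged 436.8 in iron-deficient and 705.2 in control pools (-0.69 ± 0.31), and Rab8a, a vesicle GTPase, averaged 627.2 in iron-deficient and 900.8 in control pools (-0.52 ± 0.31). Myo1c, a motor protein of GLUT4 vesicles, differed by -0.62 ± 0.49. Txnip, which promotes removal of GLUT1 from the surface and was not named by the size of its difference, read 2439.8 and 1299.8 in iron-deficient pools against 1323.9 and 1323.7 in control pools.

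Among 11 tested transcription factors, 1 had both iron-deficient signals above the controls and 3 had both below, where 11.8% and 25% of all tested probe sets were so placed, with a median of 0.00. Hnf4a, a nuclear receptor of tubule and liver, read 990.2 and 1157 in the iron-deficient pools, against 1850.2 and 1968.9 in the control pools (-0.83 ± 0.32, limma adjusted p = 0.852). Foxa3, a liver forkhead factor, read 92.7 and 30.9 in iron-deficient pools against 18.6 and 20.9 in control pools (1.44 ± 0.57), with most of the excess in iron-deficient pool 1. Mlxip, a glucose-sensing factor, differed by -0.52 ± 0.35. Hif1a, an oxygen-regulated subunit controlled mainly at the protein level, differed by 0.17 ± 0.36.

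Among 6 tested genes of sugar phosphorylation, 1 had both iron-deficient signals above the controls and none had both below, where 11.8% and 25% of all tested probe sets were so placed. The median was 0.09, and leaving out single pools moved it between -0.35 and 0.44. The higher gene was Hk2, which traps glucose as its phosphate, at 1860.8 and 1788.2 in the iron-deficient pools, against 565.7 and 642.9 in the control pools (1.60 ± 0.31, limma adjusted p = 0.76). Hk1, which encodes another hexokinase, differed by 0.30 ± 0.46. G6pc3 and Hkdc1 differed by -0.42 ± 0.45 and 0.24 ± 0.36. G6pc, which releases free glucose, was too dim to be tested, at 0.7 and 0.9 in iron-deficient pools, neither above background, and 17.1 and 20.4 in control pools.

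Among 12 other carriers of sugars, urate, inositol and ascorbate, 7 were bright enough to be tested. Of these, 5 had both iron-deficient signals below the controls and none had both above, with a median of -0.78. Of all tested probe sets, 25% were placed below and 11.8% above. Slc5a1, a sodium-coupled glucose carrier, read 16.1 and 19.1 in the iron-deficient pools, against 164.7 and 135.6 in the control pools (-3.09 ± 0.33, limma adjusted p = 0.451). Slc23a1, a sodium-coupled ascorbate carrier, read 30.1 and 36.8 in the iron-deficient pools, against 166.1 and 145.5 in the control pools (-2.22 ± 0.33, limma adjusted p = 0.497). Slc22a12, a urate exchanger, was not above background in iron-deficient pool 1, at 1.7, and read 35.2 in iron-deficient pool 2, against 90.1 and 99.8 in the control pools. It passed the brightness filter, which took the mean over all 4 pools, through its control signals. Its place in the count of 5 was thus set in part by the filter. Slc5a3, an inositol carrier that is bright in all 4 pools, differed by -0.18 ± 0.32.

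**Figure D3:**
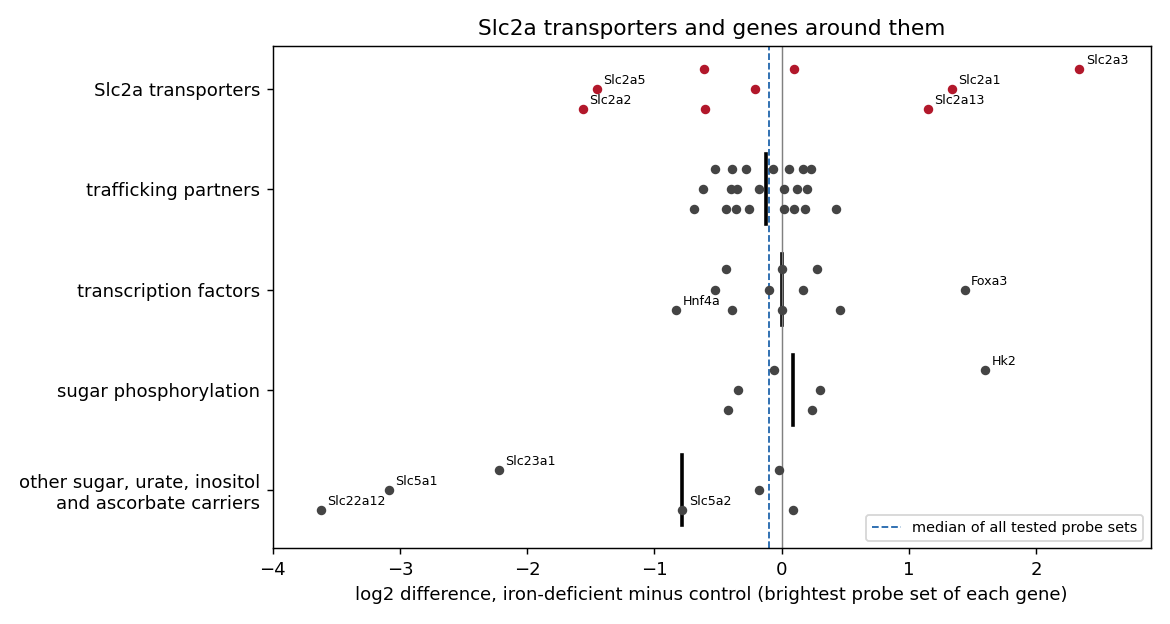
Log2 difference between the diets, iron-deficient minus control, for the brightest tested probe set of each gene for 9 Slc2a transporters and 4 lists of related genes, 1 point per gene, with a black bar at the median of each related list and a dashed line at the median of all tested probe sets, -0.103. The trafficking genes lie between -0.69 and 0.43, while the Slc2a genes run from -1.56 to 2.34.

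The genes most like Slc2a1, Slc2a2 and Slc2a3 in their pattern were found by the root mean square distance of log2 signals over the 4 pools, each centred on its own mean, among 12988 other genes. Nearest to Slc2a1 were Ms4a3, Sez6l and Ddit4, at 0.112, 0.125 and 0.126 log2 units. Ddit4, an inhibitor of mTOR signalling, read 5799.5 and 3835 in the iron-deficient pools, against 1843.3 and 2384.5 in the control pools. Nearest to Slc2a2 were Cdhr5, Pdzk1 and Vnn1, at 0.027, 0.030 and 0.056. Pdzk1, a scaffold protein of apical membranes, read 223.6 and 369 in the iron-deficient pools, against 867.3 and 820.5 in the control pools. Nearest to Slc2a3 were Adm, Stfa3 and Hbb-bh1, at the wider distances of 0.145, 0.165 and 0.321. With 4 pools, many genes can come close by their diet difference alone.

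Marker lists of several cell types were set beside the members in the same way. Over all tested probe sets, 11.8% had both iron-deficient signals above the controls and 25% had both below, and the counts of markers placed higher or lower are to be read against these shares. The brightness filter took the mean over all 4 pools, so a marker dim in 1 diet could be tested through the other. Such counts are therefore partly set by the filter, as for the proximal tubule markers Miox and Slc17a1, under 17.3 in both iron-deficient pools. All 11 tested proximal tubule markers had both iron-deficient signals below both control signals, where 25% of all tested probe sets were so placed. Their summed signal over the 13 genes on the array was 399.4 and 937.5 in the iron-deficient pools, against 4207 and 3954 in the control pools, which is 9.79% and 23.0% of the control mean where Slc2a2 kept 25.7% and 44.8%. Such a sum follows its brightest genes. Log2 differences of single tested markers ran from -5.09 for Fbp1 to -0.96 for Slc22a8, a range that includes the -1.56 of Slc2a2. Of these 13 genes, Ass1 was not above background in any pool, and Miox and Slc5a12 were below background in each iron-deficient pool. The part of these markers in the Slc2a2 difference was not tested.

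Granulocyte and erythroid markers were mostly higher in the pools where Slc2a1 and Slc2a3 were higher, whereas platelet and macrophage or leukocyte markers were not. All 7 tested granulocyte markers were higher in each iron-deficient pool, where 11.8% of all tested probe sets were so placed. However, Mpo, Camp, Ngp and Ctsg were under the filter limit of 17.3 in both control pools and were tested only through the iron-deficient pools. Their place in this count was thus set in part by the filter. The granulocyte markers had a summed signal over 9 genes of 2585 and 1817 in the iron-deficient pools, against 460.9 and 480.7 in the control pools. Among 8 tested erythroid markers 6 were higher and 1, Alas2, was lower, with a summed signal over 11 genes of 9678 and 6744 in the iron-deficient pools, against 2976 and 3311 in the control pools. Of the 6, Hemgn and Ermap averaged 17.05 and 17.15 in the control pools, under the filter limit, and were tested only through the iron-deficient pools. Most of the sum was Hbb-y, at 6816.4 and 4411.9 in the iron-deficient pools, against 1848.3 and 2071.8 in the control pools. Platelet markers, of which 1 of 4 tested was higher and none was lower, summed over 6 genes to 514.8 and 627.8 in iron-deficient pools against 634.3 and 567.2 in control pools. Macrophage and leukocyte markers summed to 1157 and 1256 in iron-deficient pools against 1702 and 2034 in control pools, and 6 of 9 were lower. In the control pools, Ctsg and Ltf of the granulocyte list and Gata1 and Rhag of the erythroid list were not above background. The part of granulocyte and erythroid markers in the Slc2a1 and Slc2a3 differences was not tested.

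Summed signals of other marker lists also differed between pools. Skeletal muscle markers, the tissue best known for Slc2a4, summed over 8 genes to 343.4 and 2128 in the iron-deficient pools, against 423.4 and 297.9 in the control pools. The brighter Slc2a4 probe set read 187 and 189.5 in the iron-deficient pools and 235.5 and 201 in the control pools. Liver markers, from a tissue that also uses Slc2a2, summed over 7 genes to 300.1 and 3037 in the iron-deficient pools, against 1574 and 1440 in the control pools. Slc2a2 read 83.1 and 144.9 in the iron-deficient pools and 329 and 317.6 in the control pools. Neuron markers, with 2 of 4 higher and none lower, summed over 8 genes to 880.1 and 830.6 in iron-deficient pools against 548 and 557.4 in control pools. Endothelial markers summed over 9 genes to 3751 and 5489 in iron-deficient pools against 6127 and 6296 in control pools, with 1 higher and 4 lower of 9. The part of these markers in the Slc2a differences was not tested.

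**Figure D4:**
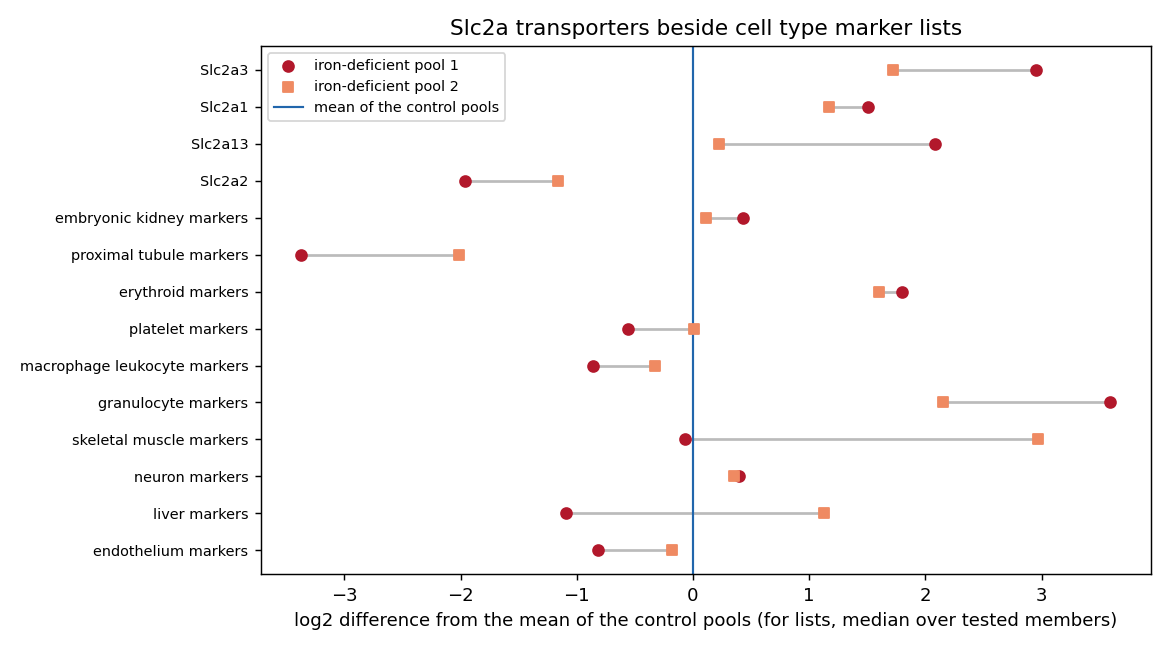
Log2 difference of each iron-deficient pool from the mean of the 2 control pools, for 4 Slc2a probe sets and for the median over tested members of 10 cell type marker lists. Slc2a2 and the proximal tubule markers lie below the control mean in both iron-deficient pools, at -1.96 and -1.16 and at -3.37 and -2.01, and the skeletal muscle and liver medians differ most between the iron-deficient pools.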

How the data were processed

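RNA of 4 pools was labelled with biotin and hybridised to Affymetrix arrays, per the labels' protocols. The authors deposited linear intensity values, 1 per probe set and array, and the values themselves show that each array has a mean of 250.0 after trimming 2% at each end. The submitters' processing notes name RMA, but linear values without a shared distribution are not RMA output, and what software made them stays unknown, as does any genome build.

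Zeros (1 and 1 in the iron-deficient, 3 and 1 in the control arrays) were set to 0.1 before log2. After 64 control probe sets were left out, the lowest 40% by mean log2 signal were dropped (limit 17.3), which left 27022. Differences were fitted with limma 3.58.1 in R 4.3.3 (lmFit, eBayes, diet as the only term, two-sided, Benjamini-Hochberg over 27022), and this procedure was tested on simulated data. An error after ± is the SE of a log2 difference, from a moderated fit with 2 arrays per diet, whose number limits the precision. Background was the highest of 27 unspiked control probe sets per array. An "at least" fold sets the mean log2 signal of the brighter diet against the higher of signal and background in each array of the dimmer diet.

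Symbols came from the platform annotation, in which 34945 probe sets have 1 symbol. Named genes were all members, up to 3 genes of each related list by smallest p, and the 3 nearest patterns. Txnip, Hif1a, Hk1, G6pc and Slc5a3 were named for their role after their values were seen. The members and lists were chosen with earlier results of these data known. Alternatives were other filters, quantile normalization, median centring, an offset of 16, a replicate block, leaving out each pool, 1 probe set per gene, and an intensity trend. Centring on hybridization controls was added after the data were seen.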

Additional observations from a re-analysis of the deposited data

How the results depend on the processing

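For the 11 Slc2a probe sets whose pools did not overlap between diets, 3 other scalings were tried. They were quantile normalization, median centring and centring on hybridization controls, and the sign was kept in 33 of 33 values. Each centring moved all differences down by 1 fixed amount, smaller than any positive difference among these probe sets. Only quantile normalization could therefore have turned a sign. Leaving out a pool cannot turn the sign of a probe set whose pools did not overlap and shows nothing about it. A diet left with 1 array was assumed to vary like the other. Values that moved with single pools included Slc2a13, Slc2a5 and Slc2a8, which differed by 0.22, 0.01 and 0.52 without iron-deficient pool 1 and by 2.08, -2.90 and -0.32 without iron-deficient pool 2. Slc2a3 (1437052_s_at) differed by 1.72 and 2.95, and Slc2a10 (1419434_at) by -0.17 and -1.04, without these pools. Of the 5 Slc2a probe sets placed lower, 3 remained so after median centring, and 3 with the lowest 60% left out, where fewer probe sets are tested.

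Limma called no probe set on the whole array, and 14 higher and 141 lower with centring on hybridization controls, 82 higher and 119 lower with median centring, 261 and 218 with the replicate block, and 1 and 12 with 1 probe set per gene. With either centring, with the block, and with control pool 1 or control pool 2 left out, limma estimated a single variance for all probe sets. Only these 2 of the fits without a pool gave any calls. Leaving out a pool gave 0 to 42 calls higher and 0 to 33 lower, the most of them without control pool 1. The replicate block paired the arrays by pool number, and what an equal number stands for is unknown. The pool 1 minus pool 2 differences of the diets correlated at 0.357 across probe sets. The source of this correlation was not tested. Probe sets with both iron-deficient signals above the controls numbered 6252 with no filter, 258 with centring on hybridization controls and 4548 to 9439 when a pool was left out. Those with both below numbered 14656 with that centring, 4246 with median centring and 8566 to 14205 when a pool was left out.

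List medians with the lowest 60% left out were -0.10 for transcription factors and -0.18 for other carriers, and that of trafficking genes was -0.04 after quantile normalization. Centred on hybridization controls, the medians of trafficking, transcription, phosphorylation and other carriers were -0.72, -0.60, -0.51 and -1.38. When a pool was left out they ran from -0.14 to -0.03 for trafficking, -0.34 to 0.05 for transcription, -0.35 to 0.44 for phosphorylation and -1.21 to -0.36 for other carriers. Signals below background in some or all pools, as for both probe sets of Slc2a9 and the dim ones of Slc2a3, limit what these arrays show.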
